A study of Mus musculus with 12 samples.

Results

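The genes described here are 9 enzymes that make or break down heme outside the red cell lineage, namely Alas1, Alad, Uros, Urod, Cpox, Ppox, Fech, Hmox1 and Hmox2. They were chosen by name from the 53700 genes of the count table, and all 9 passed the filter on low counts that left 17847 genes to be tested. Alas2, the erythroid counterpart of Alas1, is not one of the 9 and serves as a reference for blood. The 12 libraries were made from whole hearts of male mice, 6 ac-WT with the genotype CYB5R3wt/wt, Myh6-CreERT2 and 6 ac-CYB5R3–KO with CYB5R3fl/fl, Myh6-CreERT2. Both groups thus carried the inducible Cre, and both received tamoxifen (33 mg/kg/d for 5 days, begun at 10 to 13 weeks of age) with hearts collected 5 days later. Because the Myh6 promoter is active in cardiomyocytes, the floxed allele stays intact in endothelial cells, fibroblasts, macrophages and blood cells of these hearts. The comparison asks how transcripts of heme metabolism differed after loss of CYB5R3, a flavoprotein that reduces cytochrome b5 and heme iron.

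Heme is built from glycine and succinyl-CoA in a route that begins in mitochondria, passes through the cytosol and ends in mitochondria, where ferrochelatase inserts iron into protoporphyrin IX. In cells other than erythroblasts the first step, catalysed by ALAS1, limits the rate and is held back by heme itself. Heme oxygenases open the ring and release iron, carbon monoxide and biliverdin, which biliverdin reductases turn into bilirubin. The heart needs heme for cytochromes of the respiratory chain, for myoglobin and for soluble guanylate cyclase.

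Between 43393183 and 53754284 reads were counted per heart, and the spread between mice (biological coefficient of variation 26.5%) rather than counting error limited precision. Levels are given as CPM, the reads of a gene relative to its library size after TMM scaling, which sets libraries so that most genes keep one level. The TMM factors of ac-WT mice 2 and 3 were the lowest, at 0.570 and 0.723, against 0.988 to 1.22 in the other 10 hearts, so values that change most without these 2 hearts are given both with and without them. Cyb5r3 itself spanned 81.9 to 185 CPM in ac-WT mice and 42.0 to 67.4 CPM in ac-CYB5R3–KO mice, without overlap. All 10 cardiomyocyte markers were detected, and their mean log2(CPM + 1) was 11.8 and 11.5 in ac-WT mice 2 and 3, 10.7 to 10.9 in the other ac-WT mice and 10.3 to 10.97 in ac-CYB5R3–KO mice. Fewer cells of a type and less RNA per cell cannot be told apart in whole-heart RNA.

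Alad had the largest difference between genotypes among the 9 genes, at 48.9% of the ac-WT mean in ac-CYB5R3–KO mice, and it was the only member whose groups did not overlap. Urod was also lower, by less. The other 7 transcripts, Alas1, Hmox1 and Fech among them, overlapped widely between genotypes. By the two-sided quasi-likelihood test in edgeR, adjusted over all genes tested by the Benjamini-Hochberg method, 0 of the 9 passed 0.05, as did 0.101% of all genes. At an unadjusted p under 0.05 there were 2 members (Alad and Urod), beside 14.6% of all genes. Both were lower, beside 9.73% of all genes lower and 4.91% higher at that threshold. A count of 2 in 9 lies too near these shares to be a result about the enzymes as a set. After adjustment, limma-voom called 0 members and DESeq2 called 1 (Alad), beside 2 and 451 of all 17847 genes. Of the 9 log2 fold changes 4 were below 0, as were 51.2% of all genes, and the median was 0.04 against -0.01 for all genes. Groups did not overlap in 1 of the 9 members, where the mutants were the lower ones, and in 1.55% of all genes (1.04% lower and 0.51% higher).

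**Figure D1:**
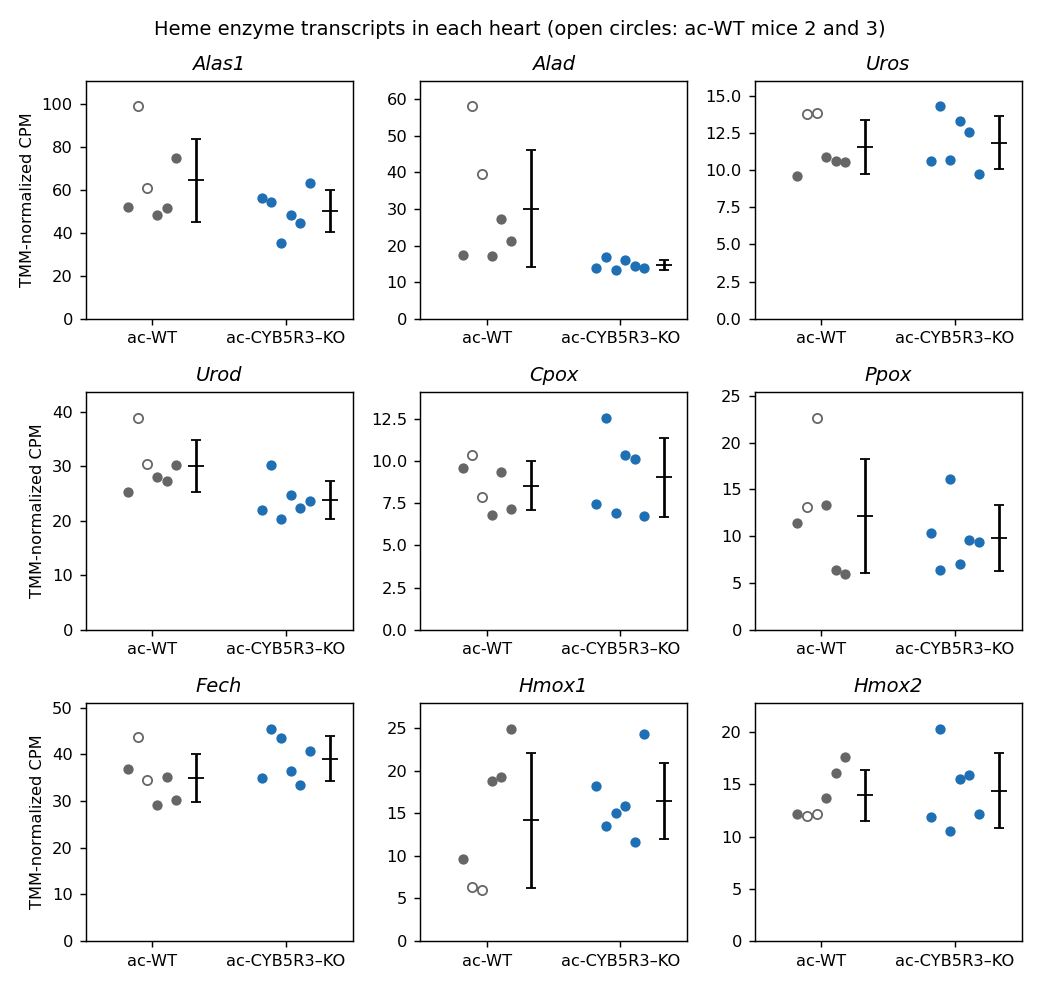
CPM of the 9 heme enzyme genes in each of 6 ac-WT and 6 ac-CYB5R3–KO hearts, 1 panel per gene with a linear vertical axis from 0. Points are hearts, open circles are ac-WT mice 2 and 3, and the bar beside each group shows its mean and SD. Among these panels, that of Alad alone has all 6 ac-CYB5R3–KO hearts (13.2 to 16.8 CPM) below all 6 ac-WT hearts (17.1 to 58.0 CPM).

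To compare one gene with another, CPM was divided by the exonic length of each gene in kilobases, from the NCBIM37 (mm9) annotation, which gives RPKM. In ac-WT mice the order of levels was Alad at 16.1 ± 8.58 RPKM (SD, n = 6), Alas1 at 14.9 ± 4.49, Fech at 12.03 ± 1.79, Urod at 11.6 ± 1.84, Hmox1 at 6.55 ± 3.65, Hmox2 at 6.29 ± 1.08, Uros at 3.23 ± 0.507, Ppox at 2.69 ± 1.34 and Cpox at 2.68 ± 0.458 RPKM. Neighbours in this order differed by less than the larger SD of the pair, except for Urod above Hmox1 and Hmox2 above Uros. In ac-CYB5R3–KO mice Fech came first at 13.5 ± 1.69 RPKM (SD, n = 6), followed by Alas1 at 11.6 ± 2.25, Urod at 9.21 ± 1.35 and Alad at 7.87 ± 0.745 RPKM. Alad thus headed the order of means in ac-WT mice and came after Fech, Alas1 and Urod in ac-CYB5R3–KO mice. Its ac-WT SD, however, spans the 3 genes that follow it in ac-WT mice. Mice 2 and 3, at 58.0 and 39.5 CPM, raised the ac-WT mean of Alad, and no further heart of that group exceeded 27.2 CPM. The order was not taken without these 2 hearts, so the first place of Alad may rest on them.

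Alas1 (ENSMUSG00000032786) encodes the housekeeping 5-aminolevulinate synthase, which joins glycine to succinyl-CoA in the mitochondrial matrix. It lies on the minus strand of chromosome 9, from 106135786 to 106150457 in NCBIM37. One of its promoter windows holds 2 copies of an NRF1-type motif (GCGC, any base, then TGCGC), named for nuclear respiratory factor 1, and the stretches around both are shown because this enzyme opens the route. They come from RefSeq (GRCm38.p6, minus strand, 5′ to 3′), with the motif in capitals.
Alas1, chr9:106247935-106247964: gcttcggcgcGCGCGTGCGCgcggcaggcc
Alas1, chr9:106247906-106247935: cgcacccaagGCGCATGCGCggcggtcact
The motif begins 224 and 195 bases upstream of the listed start at 106247730, at or just inside the transcript that begins at the other listed start, 106247954. Of 32851 promoter windows of all genes 3.74% hold this motif.

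In ac-WT mice Alas1 ranged from 48.4 to 98.6 CPM (median 56.4), and in ac-CYB5R3–KO mice from 35.2 to 62.8 CPM (median 51.0). The highest value belonged to ac-WT mouse 2, the next to ac-WT mouse 6 at 74.8 CPM, and 3 of 6 ac-CYB5R3–KO mice lay below the lowest ac-WT mouse. The means of 64.4 ± 19.3 CPM in ac-WT and 50.2 ± 9.71 CPM in ac-CYB5R3–KO mice (SD, n = 6 each) gave a log2 fold change of -0.36 (95% CI -0.76 to 0.04, edgeR adjusted p = 0.392, two-sided exact permutation p = 0.134). The interval includes no difference and also a decrease of -0.76 on the log2 scale. Without ac-WT mouse 2 the log2 fold change was -0.19, and without mice 2 and 3 it was -0.16. It was -0.04 under total counts, where the median of all genes was 0.26, and -0.05 with the cardiomyocyte marker mean included. A gene annotated on the opposite strand, 4930500F10Rik, shares exonic sequence with Alas1, and the strand setting of the counting is not given in the sources used here.

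Alad (ENSMUSG00000028393) encodes delta-aminolevulinate dehydratase, the cytosolic enzyme that condenses a pair of aminolevulinate molecules to porphobilinogen. It lies on the minus strand of chromosome 4, from 62170203 to 62180952 in NCBIM37. Because Alad carries the clearest difference among the 9 genes, the bases before its most upstream listed start are printed from RefSeq (GRCm38.p6, minus strand, 5′ to 3′), with the E-box CACGTG in capitals.
Alad, chr4:62520064-62520313: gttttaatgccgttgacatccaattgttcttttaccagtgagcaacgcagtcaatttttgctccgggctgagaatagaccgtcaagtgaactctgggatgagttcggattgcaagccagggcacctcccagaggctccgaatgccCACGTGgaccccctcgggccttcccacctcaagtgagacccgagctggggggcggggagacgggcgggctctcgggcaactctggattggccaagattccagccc
The E-box begins 105 bases upstream of the start, and GC boxes (GGGCGG) begin 56 and 44 bases upstream. A match is a description of the letters and says nothing of what binds there.

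In ac-WT mice Alad ranged from 17.1 to 58.0 CPM with a median of 24.2 CPM. The range in ac-CYB5R3–KO mice was 13.2 to 16.8 CPM with a median of 14.2 CPM. Every ac-CYB5R3–KO heart was below every ac-WT heart, and the ac-CYB5R3–KO hearts were close together while ac-WT mice 2 and 3, at 58.0 and 39.5 CPM, were far above the rest of their group. The means were 30.1 ± 16.0 CPM in ac-WT and 14.7 ± 1.39 CPM in ac-CYB5R3–KO mice (SD, n = 6 each), a log2 fold change of -1.03 (SE 0.27, 95% CI -1.60 to -0.45). Alad ranked 191 among the genes tested by unadjusted p, and its edgeR adjusted p was 0.173. The two-sided exact permutation test gave p = 0.00216, the lowest value possible with groups of this size. Without ac-WT mice 2 and 3 the log2 fold change was -0.48 (edgeR adjusted p = 0.368, unadjusted p still under 0.05), a smaller difference in the same direction, and the remaining 4 ac-WT hearts, from 17.1 to 27.2 CPM, still lay above all ac-CYB5R3–KO hearts. DESeq2 gave an adjusted p of 0.0214, and over 11 alternative settings the adjusted p ran from 0.0214 to 0.764 with an unadjusted p under 0.05 in 11 of 11. When 1 mouse at a time was left out, the log2 fold change stayed between -1.15 and -0.72.

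The cardiomyocyte marker mean moved with Alad. Deviations of Alad from its group means correlated with those of the marker mean at Pearson r = 0.851 (permutation p = 0.00664, adjusted p = 0.0448 over 27 relations) and Spearman rho = 0.755 (permutation p = 0.0113) over 12 hearts. Within groups r was 0.894 among ac-WT and 0.826 among ac-CYB5R3–KO mice (6 hearts each), but over the 10 hearts left without ac-WT mice 2 and 3 it was 0.21. In a fit that included the marker mean, Alad had a log2 fold change of -0.39 (edgeR adjusted p = 0.764, unadjusted p under 0.05). The difference in Alad was therefore smaller, and still below 0, when hearts were compared at equal marker level. Of the 10 cardiomyocyte markers 4 were lower at an unadjusted p under 0.05 and 0 were higher, beside 9.73% of all genes lower and 4.91% higher. Their median log2 fold change was -0.40. These were 2 of 10 (Tnni3 and Myl2) and -0.06 without ac-WT mice 2 and 3, where 7.98% of all genes passed, 56.9% of them lower. Under total counts they were 3 of 10 and -0.04, where 11.5% of all genes passed, 17.9% of them lower.

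Hdhd3 and Pole3, neighbours of Alad on chromosome 4, were looked at after the values of Alad were known. Hdhd3, a gene of the haloacid dehalogenase-like hydrolases, averaged 3.06 ± 1.005 CPM in ac-WT and 1.60 ± 0.328 CPM in ac-CYB5R3–KO mice (SD, n = 6 each). Its log2 fold change was -0.94 (SE 0.23, edgeR adjusted p = 0.173, two-sided exact permutation p = 0.0108), with groups that overlapped, and -0.79 without ac-WT mice 2 and 3 (unadjusted p under 0.05). Pole3, a DNA polymerase epsilon subunit gene, was at 0.16 (edgeR adjusted p = 0.452). Hdhd3 was thus lower by nearly as much as Alad, while the test did not call Pole3 at either threshold. Whether the mixed background of the line differed between the groups around these genes was not tested.

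Uros (ENSMUSG00000030979, chromosome 7, 140877926 to 140901755) encodes uroporphyrinogen III synthase, which closes the tetrapyrrole ring. It averaged 11.6 ± 1.81 CPM in ac-WT and 11.9 ± 1.79 CPM in ac-CYB5R3–KO mice (SD, n = 6 each), a log2 fold change of 0.04 (95% CI -0.24 to 0.31, edgeR adjusted p = 0.908). The sign changed when ac-WT mouse 1 or ac-CYB5R3–KO mouse 2 was left out. Under total-count scaling Uros had 0.34 with an unadjusted p under 0.05, which is 0.08 relative to the median of all genes under that scaling.

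Urod (ENSMUSG00000028684) encodes uroporphyrinogen decarboxylase, the last of the cytosolic enzymes. It lies on the minus strand of chromosome 4, from 116662570 to 116667018 in NCBIM37. As the second member past the unadjusted threshold, it is shown with the bases before its listed start (RefSeq, GRCm38.p6, minus strand, 5′ to 3′) and the E-box in capitals.
Urod, chr4:116994414-116994663: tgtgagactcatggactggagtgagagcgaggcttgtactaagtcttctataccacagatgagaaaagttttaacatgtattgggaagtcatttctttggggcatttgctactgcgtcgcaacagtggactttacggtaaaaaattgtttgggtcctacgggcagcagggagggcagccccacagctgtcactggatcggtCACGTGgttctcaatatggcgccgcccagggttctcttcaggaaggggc
The E-box begins 49 bases upstream of the start. Among the 7 members with promoter windows, 3 hold an E-box (Alad, Urod and Uros), 2 the NRF1-type motif (Alas1 and Uros), 5 a GC box and 0 the GATA motif AGATAA. Both strands were searched over the 250 bases before each start. A gene may have several windows, and of the 12 windows of these members 4 held the E-box, 2 the NRF1-type motif, 6 the GC box and 0 the GATA motif. Counted in the same way per window, the shares over all 32851 windows were 6.02% for the E-box, 3.74% for the NRF1-type motif, 32.7% for the GC box and 9.99% for the GATA motif. Matches that overlapped one another were each counted. The search did not include Fech and Hmox1.

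Urod ranged from 25.3 to 38.9 CPM in ac-WT mice, against 20.2 to 30.3 CPM in ac-CYB5R3–KO mice. The groups overlapped through ac-CYB5R3–KO mouse 2 at 30.3 CPM, and the other 5 mutants were below the lowest ac-WT mouse. The means of 30.0 ± 4.76 and 23.9 ± 3.51 CPM (SD, n = 6 each) gave a log2 fold change of -0.33 (SE 0.12, 95% CI -0.59 to -0.07, edgeR adjusted p = 0.248, two-sided exact permutation p = 0.0195). The unadjusted edgeR p stayed under 0.05 whichever of the 12 mice was left out. It did not without ac-WT mice 2 and 3 together, where Urod had -0.20, or with 1 surrogate variable, where it had -0.22. Total counts in place of TMM factors shifted the median log2 fold change over all genes to 0.26. Urod then had -0.03 and no longer passed, which is -0.29 relative to that median, and Alad had -0.62 and still passed unadjusted, which is -0.88 relative to it. Urod deviated together with the cardiomyocyte marker mean (Pearson r = 0.815, permutation p = 0.00101, adjusted p = 0.00909, Spearman rho = 0.776 with permutation p = 0.00663, 12 hearts), also without ac-WT mice 2 and 3 (r = 0.761). In the fit that included the marker mean Urod had -0.12 and did not pass.

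**Figure D2:**
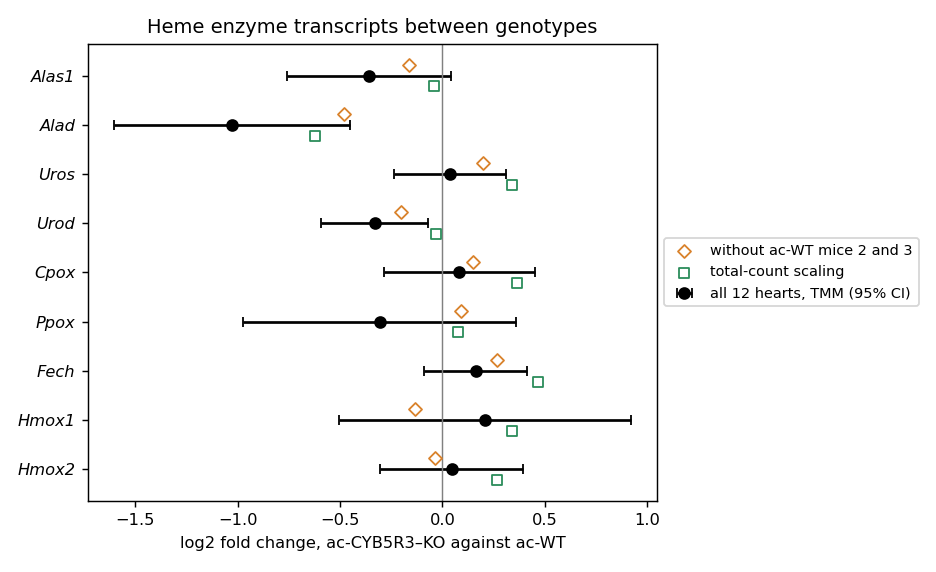
Log2 fold change of ac-CYB5R3–KO against ac-WT hearts for each heme enzyme gene, with 95% confidence intervals from edgeR (black, all 12 hearts, TMM), and the values without ac-WT mice 2 and 3 (orange diamonds) and under total-count scaling (green squares). The intervals of Alad (-1.60 to -0.45) and Urod (-0.59 to -0.07) lie below 0, and the square of Urod sits at -0.03.

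Cpox, Ppox and Fech encode the mitochondrial enzymes that end the route. Cpox (ENSMUSG00000022742, chromosome 16, 58670321 to 58680504), for coproporphyrinogen oxidase in the intermembrane space, averaged 8.53 ± 1.46 CPM in ac-WT and 9.02 ± 2.35 CPM in ac-CYB5R3–KO mice (SD, n = 6 each). A log2 fold change of 0.08 (95% CI -0.29 to 0.45, edgeR adjusted p = 0.843) became -0.03 without ac-CYB5R3–KO mouse 2. Ppox (ENSMUSG00000062729, chromosome 1, 173206121 to 173211317), for protoporphyrinogen oxidase of the inner membrane, was the most variable of the 3, with values of 5.99 to 22.7 CPM in ac-WT and 6.35 to 16.2 CPM in ac-CYB5R3–KO mice. Its log2 fold change was -0.31 (95% CI -0.97 to 0.36, edgeR adjusted p = 0.656), with the sign turned under total counts (0.07) and without ac-WT mice 2 and 3 (0.09). It was -0.03 without ac-WT mouse 3 alone and -0.50 without ac-CYB5R3–KO mouse 3. In a fit that included the mean of the blood markers it was -0.83 (edgeR adjusted p = 0.132, unadjusted p under 0.05, beside 27.0% of all genes). Ppox and that mean deviated together at Pearson r = 0.62 (permutation p = 0.045, adjusted p = 0.11 over 27 relations, 12 hearts). Without ac-WT mouse 6 and ac-CYB5R3–KO mouse 3 r was 0.297. Ppox shares exonic sequence with B4galt3 on the opposite strand, so its counts are uncertain.

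Fech (ENSMUSG00000024588, chromosome 18, 64616204 to 64648720), for ferrochelatase, was on average higher in ac-CYB5R3–KO mice. Its values ran from 29.2 to 43.6 CPM (mean 34.9 ± 5.21, SD, n = 6) in ac-WT mice and from 33.3 to 45.5 CPM (mean 39.1 ± 4.89, SD, n = 6) in the mutants, of which 1 lay below the ac-WT median. The log2 fold change was 0.16 (95% CI -0.09 to 0.41, edgeR adjusted p = 0.525, two-sided exact permutation p = 0.182). It was 0.25 without ac-WT mouse 2 and 0.26 without ac-WT mice 2 and 3 (edgeR adjusted p = 0.444 and adjusted p = 0.584), both with an unadjusted p under 0.05, and 0.46 under total counts, which is 0.21 relative to the median of all genes. Fech and the blood marker mean deviated together at Pearson r = 0.63 (permutation p = 0.0431, adjusted p = 0.11 over 27 relations) and Spearman rho = 0.587 (permutation p = 0.0615) over 12 hearts, which misses the threshold after adjustment. The value was r = 0.947 among ac-WT and 0.217 among ac-CYB5R3–KO mice, and 0.486 without ac-WT mouse 6 and ac-CYB5R3–KO mouse 3, the hearts farthest from the median. All 7 tested blood markers were higher on average in ac-CYB5R3–KO mice, 4 of them at an unadjusted p under 0.05, beside 4.91% of all genes higher. The mean log2(CPM + 1) of these markers spanned 2.48 to 4.73 in ac-WT mice and 3.67 to 5.56 in ac-CYB5R3–KO mice. Alas2, the blood reference, was between 1.37 and 22.4 CPM in ac-WT mice and between 5.88 and 57.6 CPM in ac-CYB5R3–KO mice, with wide overlap. All 7 blood markers passed unadjusted without ac-WT mice 2 and 3, where 7.98% of all genes passed in either direction. Alas2, Hba-a1 and Hba-a2 each passed in 7 of the 12 fits that left out 1 mouse (not without ac-WT mouse 3, 4 or 5 or ac-CYB5R3–KO mouse 3 or 6). In a fit that included the blood mean, Fech had 0.02 (edgeR adjusted p = 0.927).

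Hmox1 (ENSMUSG00000005413, chromosome 8, 77617490 to 77624495) encodes heme oxygenase-1, the inducible enzyme that responds to heme and oxidative stress and is abundant in macrophages that recycle red cells. It was at 9.67, 6.29 and 6.02 CPM in ac-WT mice 1 to 3 and at 18.8, 19.3 and 24.9 CPM in ac-WT mice 4 to 6. The 6 ac-CYB5R3–KO hearts ranged from 11.6 to 24.3 CPM with a median of 15.4 CPM. The ac-WT hearts thus divided into a low and a high set of 3, and the ac-CYB5R3–KO hearts lay between and among them. Means of 14.2 ± 7.90 and 16.4 ± 4.44 CPM (SD, n = 6 each) gave a log2 fold change of 0.21 (95% CI -0.50 to 0.92, edgeR adjusted p = 0.787, two-sided exact permutation p = 0.353). It stayed above 0, from 0.07 to 0.45, when 1 mouse at a time was left out, and was 0.76 with the mean of the blood markers included. Without ac-WT mice 2 and 3 together it was -0.13, so no direction can be given for Hmox1 from these mice.

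Hmox1 followed the macrophage marker list heart by heart. The mean log2(CPM + 1) of 11 macrophage markers, among which Hmox1 is not, was lowest in ac-WT mice 2 and 3 (4.29 and 4.32) and highest in ac-WT mouse 6 (5.90), and it spanned 4.72 to 5.54 in ac-CYB5R3–KO mice. Deviations of Hmox1 from its group means correlated with those of the list at Pearson r = 0.98 (permutation p = 9e-05, adjusted p = 0.00243 over 27 relations) and Spearman rho = 0.916 (permutation p = 0.00393) over 12 hearts. The value was r = 0.994 among ac-WT and 0.898 among ac-CYB5R3–KO mice, and 0.966 without ac-WT mice 4 and 6, the hearts farthest from the median. Between genotypes 1 of the 11 markers (Cd163) was lower at an unadjusted p under 0.05 and 0 were higher, beside 9.73% of all genes lower and 4.91% higher. The median log2 fold change of the markers was -0.15. Without ac-WT mice 2 and 3 all 11 were below 0, 4 passed (Cd68, Adgre1, Cd163 and Lyz2) and the median was -0.42. In that fit 7.98% of all genes passed, 56.9% of them lower. Under total counts the median of the markers was 0.05.

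**Figure D3:**
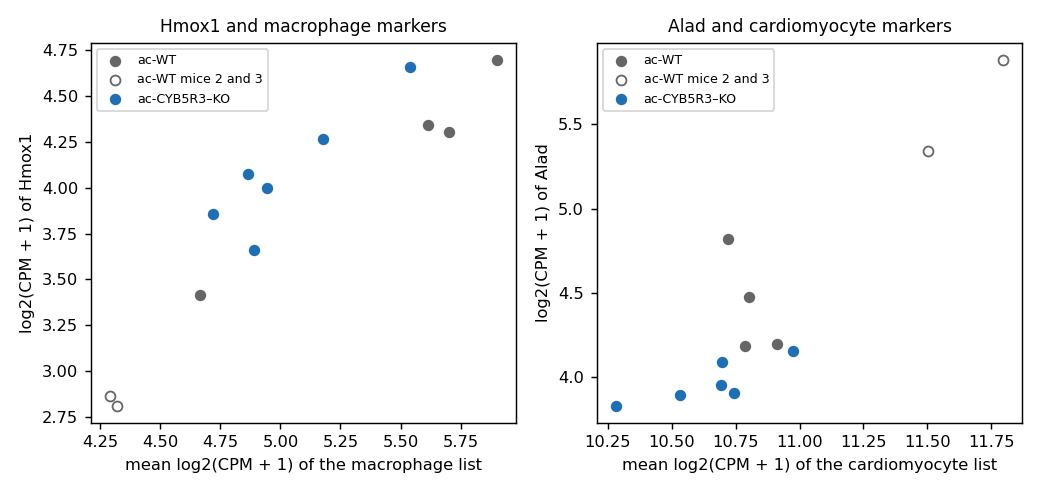
Left, log2(CPM + 1) of Hmox1 against the mean log2(CPM + 1) of the macrophage list, and right, Alad against the mean of the cardiomyocyte list, with 1 point per heart (grey ac-WT, blue ac-CYB5R3–KO, open circles ac-WT mice 2 and 3). Hmox1 climbs with the macrophage mean in both genotypes (r = 0.98 for deviations from the group means), while for Alad r was 0.851 over 12 hearts, 0.21 without the open circles at the upper right and 0.826 among the ac-CYB5R3–KO hearts alone.

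Hmox2 (ENSMUSG00000004070, chromosome 16, 4726361 to 4766742) encodes the constitutive heme oxygenase-2. It averaged 13.9 ± 2.40 CPM in ac-WT and 14.4 ± 3.60 CPM in ac-CYB5R3–KO mice (SD, n = 6 each), a log2 fold change of 0.04 (95% CI -0.31 to 0.39, edgeR adjusted p = 0.913). It was -0.03 without ac-WT mice 2 and 3 and -0.08 without ac-CYB5R3–KO mouse 2. Across hearts, Hmox2 was low where the blood mean was high (r = -0.865, permutation p = 0.00056, adjusted p = 0.00756, Spearman rho = -0.86 with permutation p = 0.00097, 12 hearts), with r = -0.769 without ac-WT mouse 6 and ac-CYB5R3–KO mouse 3, the hearts farthest from the median of the blood mean. In the fit that included the blood mean Hmox2 had 0.37 (edgeR adjusted p = 0.0926, unadjusted p under 0.05). Hmox2 shares exonic sequence with 5730403B10Rik on the opposite strand.

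For Alas1 and Hmox1, the regulated steps of synthesis and breakdown, the genes of most similar pattern were taken from 14443 genes with a mean of at least 1 CPM, by Pearson r of deviations from the group means of log2(CPM + 1) over 12 hearts. Closest to Alas1 were Casq2 (r = 0.935), for the calcium-binding calsequestrin of cardiac sarcoplasmic reticulum, Cycs (0.928), for cytochrome c, Hk2 (0.926), for hexokinase 2, Gm10053 (0.924) and Timm17a (0.921), for a subunit of the mitochondrial import machinery. Gm10053 resembles Cycs, so reads may have been divided between them. Closest to Hmox1 were Sirpa (0.988), for an inhibitory receptor of myeloid cells, Dnase1l1 (0.981), Slc41a2 (0.978), Dclk1 (0.975) and Ptpn1 (0.974). Without ac-WT mice 2 and 3, over 10 hearts, r was 0.864 to 0.925 for the genes listed with Alas1 and 0.949 to 0.978 for those listed with Hmox1. By that measure 0 of the 5 genes listed with Alas1 (ranks 7 to 57) and 1 of the 5 listed with Hmox1 (Sirpa, rank 3) remained among the closest 5. These values were the highest of many and carry no test.

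The 9 enzymes were set beside 47 other genes of heme metabolism in 4 lists, of which 46 were tested. Cd163 among them is also a macrophage marker, and Cox17 is a copper chaperone rather than a heme enzyme. At an unadjusted p under 0.05, 5 of the 46 were lower and 1 was higher in ac-CYB5R3–KO mice, beside the 9.73% and 4.91% of all genes given above. Under total counts the balance differed, with 0 lower and 3 higher for synthesis and substrate supply. There the maturation list and the transport and breakdown list each had 1 lower and 0 higher, and the sensing list had 1 lower and 1 higher. After adjustment 0 of the 46 passed 0.05 in edgeR or limma-voom and 4 in DESeq2, which called 451 of all 17847 genes. The median log2 fold change of the 46 was -0.05, against -0.01 for all genes tested. Among 13 genes for synthesis and substrate supply, which include mitochondrial carriers and transporters, 0 passed 0.05 unadjusted in edgeR in either direction, and the median was 0.10. Named after their values were seen, Fam210b, Lonp1 and Pgrmc2 passed unadjusted under total counts, at 0.47, 0.44 and 0.44, where the median of all genes was 0.26. Pgrmc2 also passed unadjusted with DESeq2 at 0.20, and Lonp1 with the cardiomyocyte mean as a covariate at 0.26.

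Among 4 genes for maturation of heme a, cytochrome c or cytochrome c oxidase, Cox10 and Cox17 were lower. The list median was -0.23, or -0.04 without ac-WT mice 2 and 3. Cox17, for a copper chaperone of cytochrome c oxidase, had a log2 fold change of -0.71 (edgeR adjusted p = 0.195, two-sided exact permutation p = 0.0195). It was -0.47 without ac-WT mouse 2 and -0.32 without mice 2 and 3, with unadjusted p under 0.05 in both, but -0.28 without passing in the fit that included the cardiomyocyte mean. Cox10, for heme O synthase, had -0.47 (edgeR adjusted p = 0.275, two-sided exact permutation p = 0.0433), which became -0.25 without ac-WT mouse 2 and -0.11 without mice 2 and 3, and it did not pass with the cardiomyocyte mean included (0.00032). The call of Cox10 was lost without those mice together and when ac-WT mouse 2, ac-WT mouse 3, ac-CYB5R3–KO mouse 1 or ac-CYB5R3–KO mouse 3 alone was left out. It was also lost under total counts, where Cox10 had -0.10. Cox15, for heme A synthase, was at 0.18 (edgeR adjusted p = 0.385).

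Of 13 tested genes for heme transport and breakdown products 2 were lower, and neither was reduced in size without ac-WT mice 2 and 3. Blvrb, for biliverdin reductase B, was at 14.7, 17.9 and 21.6 CPM in ac-WT mice 1 to 3, at 27.5, 24.8 and 24.4 CPM in ac-WT mice 4 to 6, and at 12.6 to 15.4 CPM in ac-CYB5R3–KO mice. The groups overlapped only through ac-WT mouse 1. The log2 fold change was -0.63 (SE 0.14, edgeR adjusted p = 0.144, two-sided exact permutation p = 0.00649) and -0.68 without ac-WT mice 2 and 3 (edgeR adjusted p = 0.169). Under total counts Blvrb had -0.40 and did not pass 0.05 unadjusted. Blvra, for the other biliverdin reductase, was at -0.10 (edgeR adjusted p = 0.743) and at 0.15 under total counts. Cd163, for the macrophage receptor of hemoglobin bound to haptoglobin, averaged 19.7 ± 8.11 and 10.2 ± 2.95 CPM (SD, n = 6 each). Its log2 fold change was -0.96 (edgeR adjusted p = 0.188, two-sided exact permutation p = 0.0281) and -1.08 without ac-WT mice 2 and 3. In the fit that included the cardiomyocyte mean Blvrb had -0.77 and Cd163 -1.16, and both still passed unadjusted. Hebp2, a heme-binding protein gene named after its values were seen, was at -0.45 without passing, and passed at -0.73 without ac-WT mice 2 and 3.

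Among 16 genes that sense heme or regulate the route, Ppargc1a was lower and Mafk higher. Ppargc1a, a coactivator that drives Alas1 in fasted liver, had a log2 fold change of -0.72 without ac-WT mouse 2 and -0.48 without ac-WT mice 2 and 3 (edgeR adjusted p = 0.609, unadjusted p under 0.05), against -1.10 in all hearts. With the cardiomyocyte mean included it had -0.31 and did not pass. Mafk, for a small MAF partner of NRF2 and BACH1, averaged 19.5 ± 3.24 and 26.9 ± 1.68 CPM (SD, n = 6 each). The log2 fold change of Mafk was 0.46 (edgeR adjusted p = 0.145, two-sided exact permutation p = 0.00433), and 0.41 without ac-WT mice 2 and 3. Bach1, for the heme-binding repressor of Hmox1, was at -0.15 (edgeR adjusted p = 0.535) and at 0.09 under total counts. It passed 0.05 unadjusted without ac-WT mice 2 and 3 (-0.20) and with the cardiomyocyte mean included (-0.25). Nfe2l2, for NRF2, was at -0.08 (edgeR adjusted p = 0.718) and at 0.15 under total counts. Of 12 NRF2 targets 2 were higher, Gclm at 0.39 (edgeR adjusted p = 0.277) and Gsr at 0.21 (edgeR adjusted p = 0.320), and 0 lower, with a median of 0.17, beside 4.91% of all genes higher and 9.73% lower. Neither passed 0.05 unadjusted without ac-WT mice 2 and 3. Gsr passed in 5 of the 12 fits that left out 1 mouse, and Gclm in 9 (not without ac-WT mouse 1, ac-WT mouse 2 or ac-CYB5R3–KO mouse 6).

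Among 23 tested hemoproteins 5 were lower and 1 was higher, with a median of -0.02, beside 9.73% of all genes lower and 4.91% higher. Of the respiratory chain, Cyc1, for cytochrome c1, had a log2 fold change of -0.63 (edgeR adjusted p = 0.184, two-sided exact permutation p = 0.00216) without overlap between groups. Cycs had -0.44, Sdhc -0.42 and Sdhd -0.36 (edgeR adjusted p = 0.232, adjusted p = 0.246 and adjusted p = 0.273). Sdhd did not pass 0.05 unadjusted in 5 of the 12 fits that left out 1 mouse, which were those without ac-WT mouse 2 or 3 and those without ac-CYB5R3–KO mouse 1, 3 or 5. Without ac-WT mice 2 and 3 together Cyc1 had -0.34 and passed, and Cycs (-0.26), Sdhc (-0.25) and Sdhd (-0.16) did not. The NADPH oxidase genes Cyba (-0.32) and Cybb (-0.48), named after their values were seen, passed there and not in all hearts (-0.23 and -0.09). With the cardiomyocyte mean included Cyc1 had -0.24 and passed, and Cycs (-0.20), Sdhc (-0.17) and Sdhd (-0.10) did not. Under total counts 2 of the 23 were lower and 2 higher, and their median was 0.21, where that of all genes was 0.26. Cyc1 (-0.29) passed under that scaling, and Cycs (-0.14), Sdhc (-0.12) and Sdhd (-0.05) did not. The cyclooxygenase genes differed in opposite directions. Ptgs2 spanned 3.24 to 5.21 CPM in ac-WT and 0.745 to 2.57 CPM in ac-CYB5R3–KO mice. Its log2 fold change was -1.16 (edgeR adjusted p = 0.113, two-sided exact permutation p = 0.00216), and -1.02 without ac-WT mice 2 and 3. Ptgs1 had 0.41 (edgeR adjusted p = 0.202), and 0.34 without those hearts, with unadjusted p under 0.05 in both, but 0.25 without passing with the cardiomyocyte mean included.

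**Figure D4:**
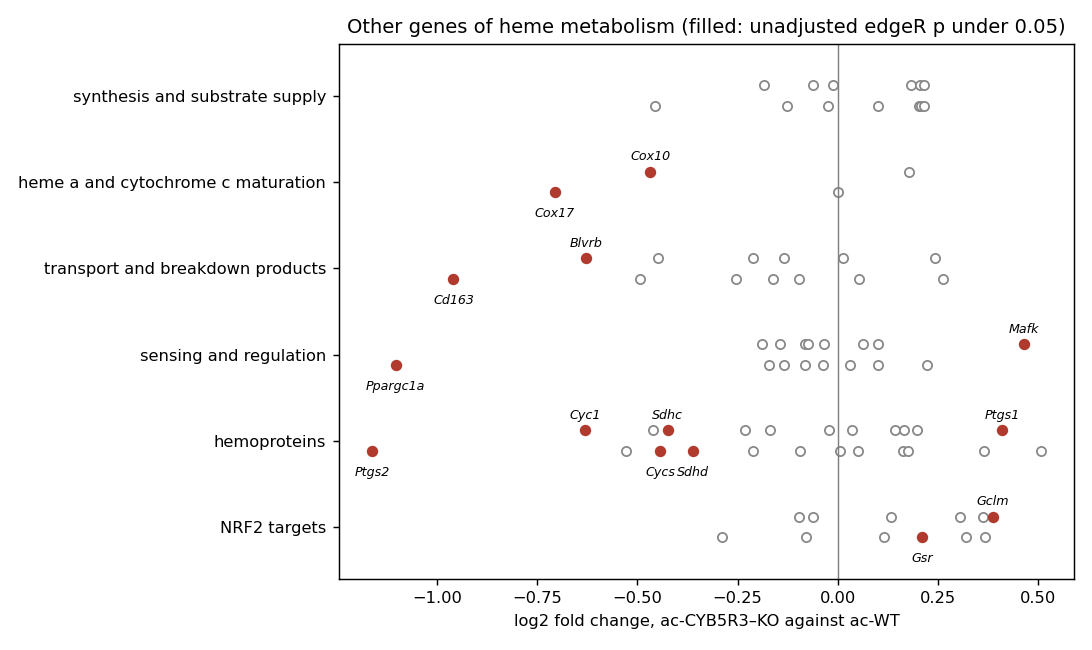
Log2 fold change of ac-CYB5R3–KO against ac-WT hearts for the other genes of heme metabolism, hemoproteins and NRF2 targets, 1 row per list and 1 circle per tested gene. Filled circles are genes with an unadjusted edgeR p under 0.05, of which the synthesis and substrate supply row has 0. They lie left of 0 from -1.16 (Ptgs2) to -0.36 (Sdhd) and right of 0 for Mafk, Ptgs1, Gclm and Gsr.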

How the data were processed

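Whole-heart total RNA from 12 mice was prepared with a stranded kit. The authors deposited the raw count of reads on each of 53700 Ensembl genes, without normalization. According to the paper, reads were trimmed, mapped with STAR to mm9 and summarised with Cufflinks. The submitters' processing notes instead name STAR, featureCounts and GRCm39. The strand setting and annotation release are not given in the sources used here, so overlapping and near-identical genes are uncertain. The count table holds no coordinates. Positions were read from the GENCODE annotation of NCBIM37, and promoters from RefSeq (GRCm38.p6).

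Samples were grouped by their genotype labels. After filterByExpr (minimum count 10) and TMM normalization, genotypes were compared in edgeR (version 4.0.16, R 4.3.3) by a two-sided quasi-likelihood test without covariates, and p was adjusted (Benjamini-Hochberg) over 17847 genes. Single genes were also compared by exact permutation on log2(CPM + 1). Relations to marker lists were permuted 100000 times within groups. Alternatives used DESeq2 (1.42.0), limma-voom (limma 3.58.1), svaseq (sva 3.50.0) and other scalings, filters and covariates, and the scripts were tested on simulated data. The named genes were the 9 members, Alas2, Cyb5r3, each gene of the wider lists with an unadjusted p under 0.05, and the 5 genes most like Alas1 and Hmox1. Cox15, Blvra, Bach1 and Nfe2l2 were named for their roles, and Hdhd3 and Pole3 for their position, all after their values were seen. The members and lists were chosen with earlier results of these data known. Some genes of the wider lists are not reported here and were left out of the counts.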

Additional observations from a re-analysis of the deposited data

How the results depend on the processing

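The number of members with an adjusted p under 0.05 was 0 in edgeR and 1 (Alad) with DESeq2 or with the blood mean as a covariate, and 0 in the other settings, leaving out each mouse included. At an unadjusted p under 0.05 it was 2, and 4 with the blood mean as a covariate (Alad, Urod, Ppox and Hmox2), where 27.0% of all genes passed. It was 2 to 3 when 1 mouse was left out, where 10.4% to 18.7% of all genes passed. The 2 were Alad and Fech, not Urod, with the surrogate variable, without ac-WT mice 2 and 3 and with the cardiomyocyte mean as a covariate. In these settings 7.85%, 7.98% and 6.46% of all genes passed. Alad, Urod, Alas1, Fech, Uros and Cpox kept their sign in 11 of 11 settings other than leaving out 1 mouse. Ppox turned to 0.0739 under total counts, 0.0904 without ac-WT mice 2 and 3 and 0.278 with a surrogate variable. Hmox1 turned to -0.296 with the surrogate variable, -0.132 without those mice and -0.235 with the cardiomyocyte mean as a covariate, and Hmox2 to -0.107 and -0.0344 in the first 2 of these. With 1 mouse left out, log2 fold changes ran from -0.0214 to 0.106 for Uros, -0.0345 to 0.155 for Cpox and -0.0769 to 0.124 for Hmox2. The cause was not tested. Total counts shifted the all-gene median to 0.26 and the share lower among genes at p under 0.05 from 66.4% to 17.9%. At that threshold they called Alad, Uros and Fech, beside 11.5% of all genes. All-gene calls at an adjusted p under 0.05 were 18 in edgeR, 451 in DESeq2, 2 in limma-voom and 584 in edgeR with the blood mean as a covariate. Settings for the other heme genes were chosen after seeing the data. At an unadjusted p under 0.05 they gave 12 genes with the blood mean as a covariate (2 after adjustment), 4 with the surrogate variable, 5 with the replicate block, 5 to 10 when 1 mouse was left out (10 without ac-WT mouse 5 or ac-CYB5R3–KO mouse 3) and 6 to 7 in the other settings, against 6. Same-numbered mice are different animals, and the numbers were not taken as pairs. Deviations of same-numbered mice correlated at 0.129 on average (-0.174 to 0.356 over 6 pairs, -0.0245 for other pairs). Because deviations sum to 0 within each group, the second average follows largely from the first. The comparison therefore cannot decide on pairing. With the replicate block Alad had -0.88 and Urod -0.33, the same 2 members passed unadjusted, the median over members was 0.02, and 2 of all genes had an adjusted p under 0.05. Spread between 6 mice per group limits the intervals, such as that of Hmox1.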
